A study of Rattus norvegicus with 24 samples.

Results

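The CXC chemokines described here are Cxcl1, Cxcl2, Cxcl3, Cxcl9, Cxcl10, Cxcl11, Cxcl12, Cxcl13, Cxcl14 and Cxcl16, chosen by gene name from the probes of a rat expression array. Of these 10 genes, 9 had a probe and were measured, and Cxcl16 was not analysed here. The 9 genes were read by 11 probes among 41012 gene probes, and each was tested as 1 of 26660 features that passed a filter on dim probes. The brightest probe of each, which stands for the gene, was well above background on 24 of 24 arrays (23 of 24 for Cxcl12) and saturated on none, so every group measured every one of the 9 genes.

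The arrays compared normal distal colon and colonic tumours of 10 male (ACIxF344)F1-Pirc rats, all of genotype Apc-Pirc/+ and 97 days of age. Every rat, the untreated ones included, thus carried 1 mutant copy of Apc in all of its tissues, and the normal colon came from tumour-bearing animals. In 5 rats (1, 5, 6, 7 and 9), 4% dextran sodium sulfate (DSS, molecular weight 500000), a sugar polymer that injures the colonic lining, was given in drinking water from day 40 to 47 and from day 54 to 61 of age. The other 5 rats (2, 3, 4, 8 and 10) received none. Tissue was thus taken weeks after the last DSS exposure. Each group therefore held 5 rats: normal colon without DSS (7 arrays), normal colon with DSS (6 arrays), tumours without DSS (5 arrays) and tumours with DSS (6 arrays). Each sample was labelled with Cy3 and set against a Cy5-labelled pool of Apc wild-type rat colon. A value is log2 of the sample over that pool, so 0 means the level of the pool and 1 means a doubling.

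CXC chemokines are small secreted proteins that steer leukocytes through G protein-coupled receptors. Cxcl1, Cxcl2 and Cxcl3, with Cxcl6 and Ppbp, carry the ELR motif and attract neutrophils through Cxcr2, and in injured epithelium and myeloid cells they are classical targets of IL-1, TNF and NF-kB signalling. Cxcl9, Cxcl10 and Cxcl11 are induced by interferons and attract T and NK cells through Cxcr3. Cxcl12 is a stromal ligand of Cxcr4 and Ackr3, Cxcl13 attracts B cells through Cxcr5 into lymphoid follicles such as those of the colon wall, and Cxcl14 is made by many epithelia and by fibroblasts.

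Cxcl1, Cxcl2 and Cxcl3 are close paralogs, so their probe sequences are shown to let a reader judge whether 1 probe could read another gene. The first 30 bases of each 60-base probe, as the files give it, were:
Cxcl1 probe: attgaaagttgtctttcatattttatggtc
Cxcl2 probe: gttcaacaatcgtaatgtgaatatcccctg
Cxcl3 probe: tctcaaggatggtcaagaagtttgtctcaa
Cxcl3 second probe: tgaagtttatgtacagtgttgagtttgaaa
Among 14 probes of the members and of Cxcl6, Pf4 and Ppbp, no pair shared a run of more than 10 bases on either strand. The second Cxcl3 probe was well above background on 0 of 24 arrays and was not tested, so Cxcl3 rests on 1 probe, which the files name Gm1960, an older name.

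Stretches upstream of the start sites of 4 members are shown because these members differed in where they passed the test. Cxcl1 and Cxcl2 rose with DSS in normal colon and in tumours of untreated rats. Cxcl11 rose in tumours of both treatments and Cxcl10 in those of DSS rats, and neither passed for DSS in normal colon. The letters are those of RefSeq on GRCr8, on the strand of the gene, with matches to the NF-kB consensus site (kB) or to the interferon-stimulated response element (GAAA, any 2 bases, GAAA) in capitals.
Cxcl1, chr14:17479365-17479464, minus strand: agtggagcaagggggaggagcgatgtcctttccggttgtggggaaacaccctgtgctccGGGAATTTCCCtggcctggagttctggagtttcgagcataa
Cxcl2, chr14:17467289-17467388, minus strand: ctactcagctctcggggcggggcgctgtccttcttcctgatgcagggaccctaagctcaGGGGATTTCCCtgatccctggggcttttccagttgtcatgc
Cxcl10, chr14:15988819-15988918, plus strand: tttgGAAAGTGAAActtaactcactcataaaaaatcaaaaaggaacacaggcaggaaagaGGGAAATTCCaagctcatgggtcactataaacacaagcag
Cxcl11, chr14:15973594-15973693, plus strand: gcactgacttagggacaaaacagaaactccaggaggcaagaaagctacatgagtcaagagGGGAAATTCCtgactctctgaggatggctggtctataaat
Of 8 measured members in the RefSeq promoter table, 4 had a kB match within 250 bases upstream, on either strand: Cxcl1, Cxcl2, Cxcl10 and Cxcl11. In Cxcl1 and Cxcl2 matches on the opposite strands overlapped, as in Cxcl6, which is no member. A kB match was found in 3.54% of 33469 upstream stretches of that length. The response element match, GAAAGTGAAA, stood 243 to 234 bases upstream of Cxcl10 alone among the 8, against 3.41% of all stretches, and the gamma-activated site (TTC, any 3 bases, GAA) was matched in Cxcl11 alone, against 7.67%. A match describes letters and says nothing of binding. In GRCr8, Cxcl11, Cxcl10 and Cxcl9 follow one another in that order on the same chromosome as Cxcl2, Cxcl1, Cxcl3, Pf4, Ppbp and Cxcl6. Cxcl3 was not in the promoter table.

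Of 24 arrays, 21 had 47.6% to 70.5% of probes well above background, and 3 had 86.9% to 95.2% (the first array of rat 2 normal colon, and the arrays of rat 4 normal colon and rat 9 tumour). Arrays fell into 2 sets by the leading characters of the slide identifiers. These sets are called lots here, with 3 rats of every group in lot 1 and 2 in lot 2. The arrays of lot 2 were scanned on a day of their own, so lot and that scan day cannot be told apart. They had 388 to 452 saturated pool probes, against 29 to 152 in lot 1. Across features, rats 1 and 5 had a correlation of 0.970 between their DSS normal colon arrays, above the 0.812 to 0.968 between repeat arrays of 1 sample, and each was left out in turn. Repeat arrays of 4 samples differed by at most 0.964 for the members that passed a test, with Cxcl1 in normal colon of rat 6 at 4.52 and 3.56. Cxcl12 and Cxcl9, which passed none, differed more, in normal colon of rat 2. The differences there were 1.04 and 1.22 for the main and second Cxcl12 probe and 0.973 for Cxcl9. The tissue labels were checked on Slc26a3, the chloride exchanger of absorptive colonocytes, which had the largest fall of 14 colonic epithelium markers. It changed in tumours by -4.54 ± 0.73 without DSS and by -3.83 ± 0.73 with DSS (limma, adjusted p = 0.000352 and 0.00285). At an adjusted p under 0.05, 4 of the 14 fell without DSS and 3 with DSS, while 10 and 11 did not pass. In these bulk samples, fewer cells of a type and less RNA per cell cannot be told apart. Precision was bounded by 5 rats in a group, and errors after a change are standard errors (SE) of the limma model with 5 rats per group.

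Tumours of untreated rats differed from their normal colon in 6 of the 9 chemokines: Cxcl1, Cxcl2, Cxcl3, Cxcl11 and Cxcl14 rose and Cxcl13 fell (limma, Benjamini-Hochberg adjusted p under 0.05). The background in this comparison was 18.0% of all features called, 8.56% higher and 9.42% lower. In rats given DSS, tumours differed from normal colon in 4 of 9, where Cxcl10, Cxcl11 and Cxcl14 rose and Cxcl13 fell, against 7.59% of features (3.73% higher and 3.86% lower). Of those features 994 of 2024 were higher, and with median centring in place of loess 400 of 665. DSS raised 3 of 9 in normal colon, Cxcl1, Cxcl2 and Cxcl3, against 7.24% of features (3.90% higher). In tumours DSS changed 0 of 9 at the threshold, and 0% of features were called there (smallest adjusted p 0.167 in limma). At an unadjusted p under 0.05 stood 1673 features, or 6.28%, and 1 of the 9 chemokines, Cxcl13. The DSS effect differed between the tissues for Cxcl1, Cxcl2 and Cxcl3, against 2.50% of features (1.67% lower). In tumours the DSS and untreated groups overlapped for each of the 9, where 0.811% of features did not overlap. The median change over the 9 genes was 1.65, 0.02, 0.51 and -0.01 in these comparisons in turn, and that over all features lay between -0.01 and 0.02. Tumour with normal colon in untreated rats and DSS with untreated normal colon share the 5 untreated normal samples, and the DSS comparisons share the 5 DSS normal samples.

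**Figure D1:**
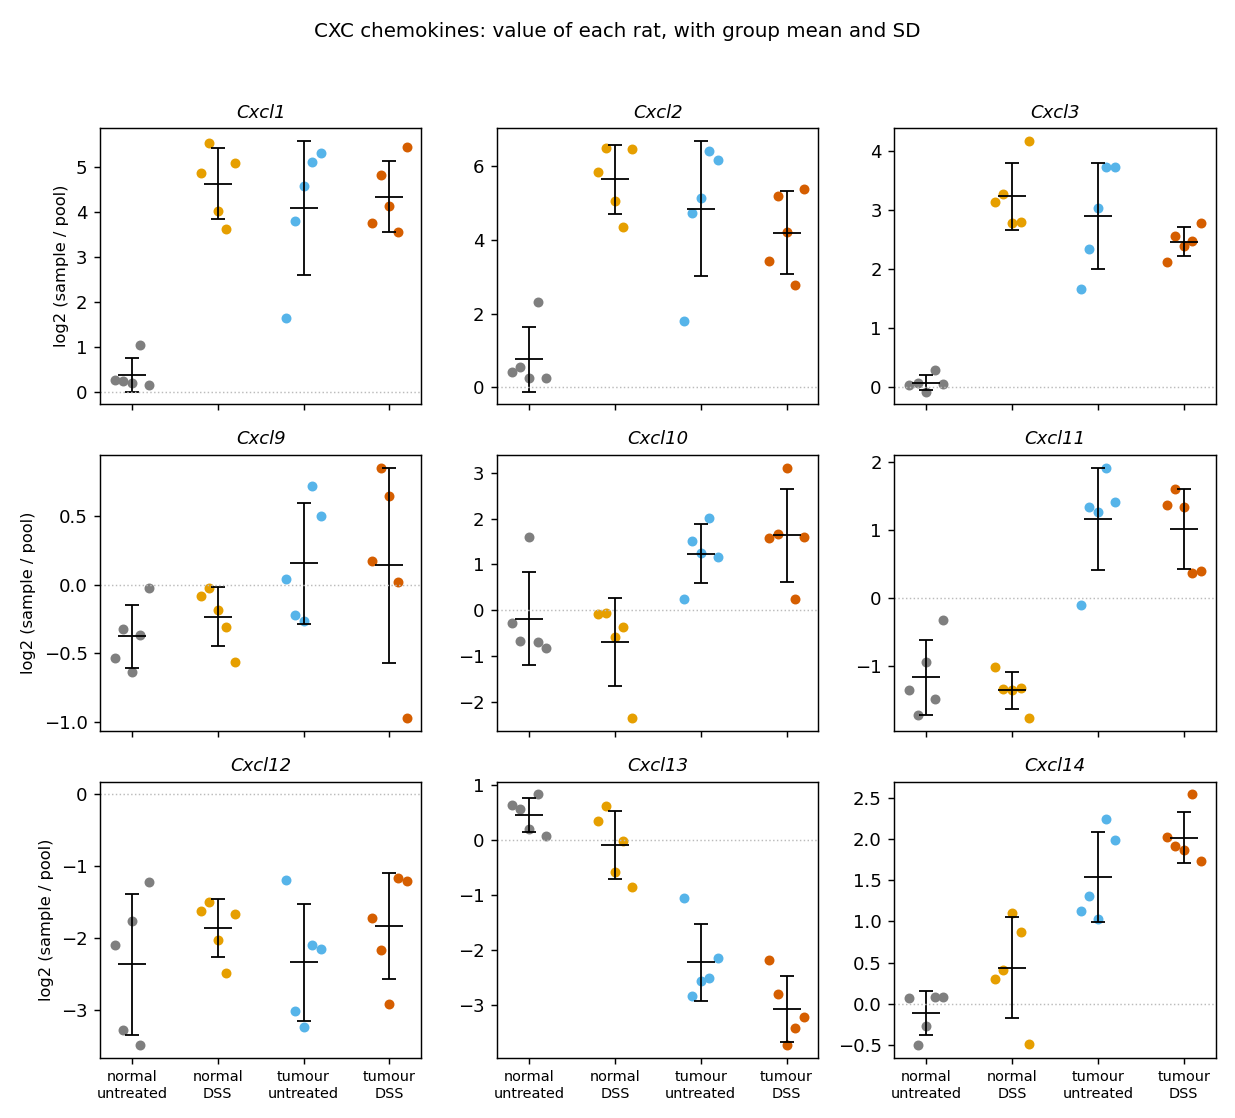
Each panel plots 1 chemokine as log2 of the sample over the wild-type pool (vertical axis) in the 4 groups, with 1 point per rat, the horizontal mark at the group mean and bars of 1 SD (n = 5 rats). Cxcl1, Cxcl2 and Cxcl3 are low in untreated normal colon and high in the other 3 groups, while Cxcl11 and Cxcl14 are high and Cxcl13 low in both tumour groups.

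The neutrophil attractants Cxcl1, Cxcl2 and Cxcl3 were low in normal colon of untreated rats, with rat 8 the highest for Cxcl1 and Cxcl2, and high in the other 3 groups. Cxcl1 read 0.27, 0.24, 0.20, 1.06 and 0.17 in normal colon of untreated rats 2, 3, 4, 8 and 10, and 1.65, 3.80, 4.58, 5.13 and 5.33 in their tumours. Rat 8 had the highest normal value and rat 2 the lowest tumour value, and the groups did not overlap. Cxcl1 rose by 3.71 ± 0.56 (13.1-fold, adjusted p = 0.000205), and was higher in the tumour of 5 of 5 rats. Cxcl2 had normal values of 0.41, 0.54, 0.27, 2.30 and 0.26 in the same order, and tumour values of 1.80, 4.72, 5.12, 6.39 and 6.17. The tumour of rat 2 lay below the normal colon of rat 8, so these groups overlapped, though each rat's tumour exceeded its own normal colon. Cxcl2 rose by 4.09 ± 0.74 (17.0-fold, adjusted p = 0.000906), within rats by 1.40 to 5.91. Cxcl3 read -0.09 to 0.28 in the 5 normal samples and 1.66, 2.34, 3.04, 3.72 and 3.72 in the tumours of rats 2, 3, 4, 8 and 10. It rose by 2.83 ± 0.33 (7.12-fold, adjusted p = 1.84e-05) with no overlap. Of the 9 chemokines, 5 had groups that did not overlap in this comparison, against 12.4% of features.

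DSS raised the same attractants in normal colon to the range of the tumours. Cxcl1 read 4.88, 5.54, 4.04, 3.63 and 5.11 in normal colon of DSS rats 1, 5, 6, 7 and 9, each above every untreated normal sample. The change was 4.25 ± 0.56 (19.0-fold, 95% interval of the log2 change 3.07 to 5.43, adjusted p = 0.000124). Cxcl2 read 5.83, 6.49, 5.05, 4.34 and 6.46 in these rats, also with no overlap. It rose by 4.88 ± 0.74 (29.4-fold, interval 3.32 to 6.43, adjusted p = 0.000449). Cxcl3 read 3.13, 3.27, 2.78, 2.80 and 4.17, and rose by 3.16 ± 0.33 (8.96-fold, adjusted p = 1.4e-05). These 3 genes were the members with no overlap between DSS and untreated normal colon, against 8.61% of features. Within lot 1 the mean differences were 4.58, 5.38 and 3.06 for Cxcl1, Cxcl2 and Cxcl3, and within lot 2 they were 3.76, 4.12 and 3.32, where 2 rats against 2 gave adjusted p of 0.149, 0.226 and 0.107. Of all features called in this comparison, 1041 of 1929 were higher, and with median centring in place of loess 297 of 366.

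In rats given DSS, none of these 3 genes passed the test between tumours and normal colon in limma, where Cxcl3 alone had an unadjusted p under 0.05 (0.0301). Cxcl1 in tumours read 3.76, 4.84, 4.14, 3.56 and 5.45 in rats 1, 5, 6, 7 and 9. Those values interleaved with the normal colon of the same rats, and the change was -0.29 ± 0.56 (interval -1.47 to 0.89, adjusted p = 0.839). Cxcl2 read 3.42, 5.19, 4.21, 2.78 and 5.38 in tumours, below the normal colon of the same rat in 5 of 5. Its change of -1.44 ± 0.74 did not pass (adjusted p = 0.299). Cxcl3 read 2.11, 2.56, 2.38, 2.46 and 2.78 in tumours, and the highest tumour was level with the lowest normal colon without overlapping it. Its change was -0.77 ± 0.33 (adjusted p = 0.187), and it passed in the fit with array weights (-0.78, adjusted p = 0.0409). Of the 9 chemokines, 5 had groups that did not overlap here, against 7.66% of features.

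The tumour difference thus depended on treatment for this trio, and the interaction tested that dependence directly. It was -4.0 ± 0.80 for Cxcl1 (adjusted p = 0.01), -5.52 ± 1.05 for Cxcl2 (adjusted p = 0.00713) and -3.60 ± 0.46 for Cxcl3 (adjusted p = 0.00045), on the log2 scale. A negative value means that DSS raised the gene less in tumours than in normal colon. Within lot 1 the interactions of Cxcl1 and Cxcl2 were -3.68 (adjusted p = 0.0787) and -4.99 (adjusted p = 0.0511), and that of Cxcl1 was -3.59 with median centring (adjusted p = 0.064). Between the tumours of DSS and of untreated rats the changes were 0.25 ± 0.56 for Cxcl1, -0.65 ± 0.74 for Cxcl2 and -0.44 ± 0.33 for Cxcl3, each with an adjusted p of 1. The 95% interval for Cxcl2 ran from -2.20 to 0.91, so these samples leave that difference loosely bounded.

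**Figure D2:**
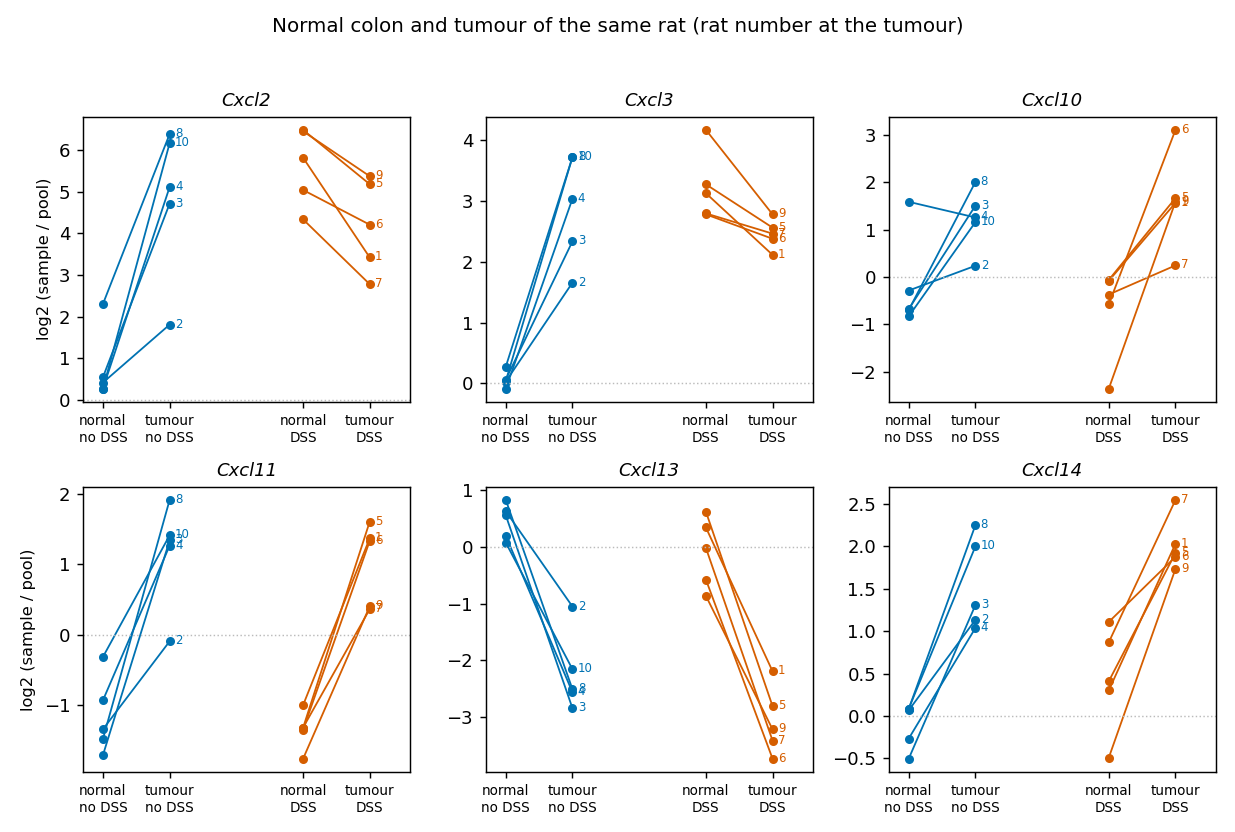
Each line joins normal colon and tumour of 1 rat, as log2 of the sample over the pool (vertical axis), for untreated rats (blue) and DSS rats (orange), with the rat number at the tumour. Cxcl2 and Cxcl3 are higher in the tumour of the 5 untreated rats and lower in that of the 5 DSS rats (the latter not past the threshold), whereas Cxcl11 and Cxcl14 are higher and Cxcl13 lower in the tumour of all 10.

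Other ELR ligands followed parts of this pattern. Cxcl6, a ligand of Cxcr1 and Cxcr2 that the files name Cxcl5, read -0.10 to 0.19 in untreated normal colon and 1.27 to 2.08 in DSS normal colon, with no overlap and with its probe well above background on 4 of 7 untreated normal arrays. It rose by 1.67 ± 0.38 with DSS (3.18-fold, adjusted p = 0.0121) and by 2.24 ± 0.38 in tumours of untreated rats (4.73-fold, adjusted p = 0.000561). In DSS rats its tumour change was -0.28 ± 0.38 (adjusted p = 0.752), and the interaction was -2.52 ± 0.54 (adjusted p = 0.016). Ppbp, the precursor of the platelet chemokine NAP-2, differed from this: it read 2.44, 2.62, 1.89, 1.36 and 3.43 in normal colon of DSS rats 1, 5, 6, 7 and 9 and -0.18 to 0.19 in their tumours. It rose by 2.36 ± 0.28 with DSS in normal colon (5.15-fold, adjusted p = 4.75e-05) and fell by 2.36 from DSS normal colon to tumour (adjusted p = 4.19e-05). In tumours of untreated rats Ppbp had a change of 0.34 ± 0.28 (adjusted p = 0.5), with rat 8 highest at 1.18. The Ppbp probe was well above background on 2 of 7 untreated normal arrays and 2 of 6 DSS tumour arrays, so those levels are near the floor of the assay. Pf4, another platelet chemokine, did not pass in any comparison, with 0.70 ± 0.24 in untreated tumours (adjusted p = 0.0506).

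Cxcl17, a chemokine of mucosal surfaces, shared with Ppbp a high level in DSS normal colon. It read 1.97, 2.01, 1.22, -0.02 and 2.95 in rats 1, 5, 6, 7 and 9, where rat 7 lay at the untreated level. It rose by 1.97 ± 0.38 (adjusted p = 0.00327), had a change of -1.94 ± 0.38 from there to DSS tumours (adjusted p = 0.00337), and had an interaction of -2.11 ± 0.53 (adjusted p = 0.0431). By its second probe, well above background on 16 of 24 arrays, the DSS change in normal colon was 0.29 ± 0.10, short of the threshold (adjusted p = 0.0829).

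Markers of stratified squamous epithelium moved with the DSS effect in normal colon. Of 15 such genes 12 were tested, and 12 of 12 rose with DSS in normal colon, against 3.90% of features. Among them were the basal keratin Krt5 (2.53 ± 0.21, adjusted p = 1.77e-06), the suprabasal keratin Krt10 (3.17 ± 0.29, adjusted p = 5.08e-06) and the uroplakin Upk1b (5.82 ± 0.67, adjusted p = 3.81e-05). The mean of the list in log2 over the pool ran from 2.58 to 4.07 in DSS normal colon and from -0.45 to 1.38 in untreated normal colon, and the sample at 1.38 was rat 8, the one with the highest Cxcl1 and Cxcl2 of its group. Between DSS normal colon and DSS tumours 10 of the 12 fell, against 3.86% of features. In tumours the mean ran from -0.16 to 0.15 with DSS and from 0.06 to 0.34 without. Krt10 was well above background on 6 of 6 DSS normal arrays, 3 of 7 untreated normal arrays and 1 array of each tumour group. The part of this list in the rise of Cxcl1, Cxcl2 and Cxcl3 in DSS normal colon was not tested. In tumours of untreated rats 2 of the 12 rose against normal colon, where 8.56% of features rose: Sprr1a by 2.85 ± 0.59 (adjusted p = 0.00257) and Krt15 by 1.93 ± 0.62 (adjusted p = 0.0386). The tumour list mean therefore averages members above the pool (Sprr1a at a mean of 3.71 without and 2.88 with DSS) and below it (Upk1b at -3.62 and -3.59).

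Neutrophil markers moved with the attractants in part. Of 15 listed genes 11 were tested, and 1 of them, Il1r2, is also on the NF-kB, IL-1 and TNF list below. In tumours of untreated rats 7 rose and 0 fell, against 8.56% and 9.42% of features. They were led by S100a9 (3.90 ± 0.39, adjusted p = 3.86e-06), S100a8 (3.62 ± 0.39, adjusted p = 8.56e-06) and Camp (2.0 ± 0.31, adjusted p = 0.00028). In DSS normal colon 3 rose, against 3.90% of features: S100a8 (3.15 ± 0.39), S100a9 (2.68 ± 0.39) and the decoy receptor Il1r2 (1.53 ± 0.28). S100a8 and S100a9 encode calprotectin. The other 8 did not pass there, with changes from 0.01 ± 0.08 (Lcn2, adjusted p = 0.973) to 0.44 ± 0.16 (Trem1, adjusted p = 0.118), and with 0.18 ± 0.10 for Cxcr2, the receptor of these ligands (adjusted p = 0.312). Several of these probes were dim, that of Trem1 being well above background on 2 of 7 untreated and 5 of 6 DSS normal arrays, and Mpo and Ltf did not pass the filter on dim probes. The list mean ran from -0.24 to 0.01 in untreated normal colon, 0.57 to 0.83 in DSS normal colon, 0.57 to 1.44 in untreated tumours and 0.48 to 0.77 in DSS tumours. In tumours of DSS rats 1 of the 11 rose against normal colon, where 3.73% of features rose: Camp by 1.13 ± 0.31 (adjusted p = 0.0323). The part of this list in the chemokine levels was not tested.

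**Figure D3:**
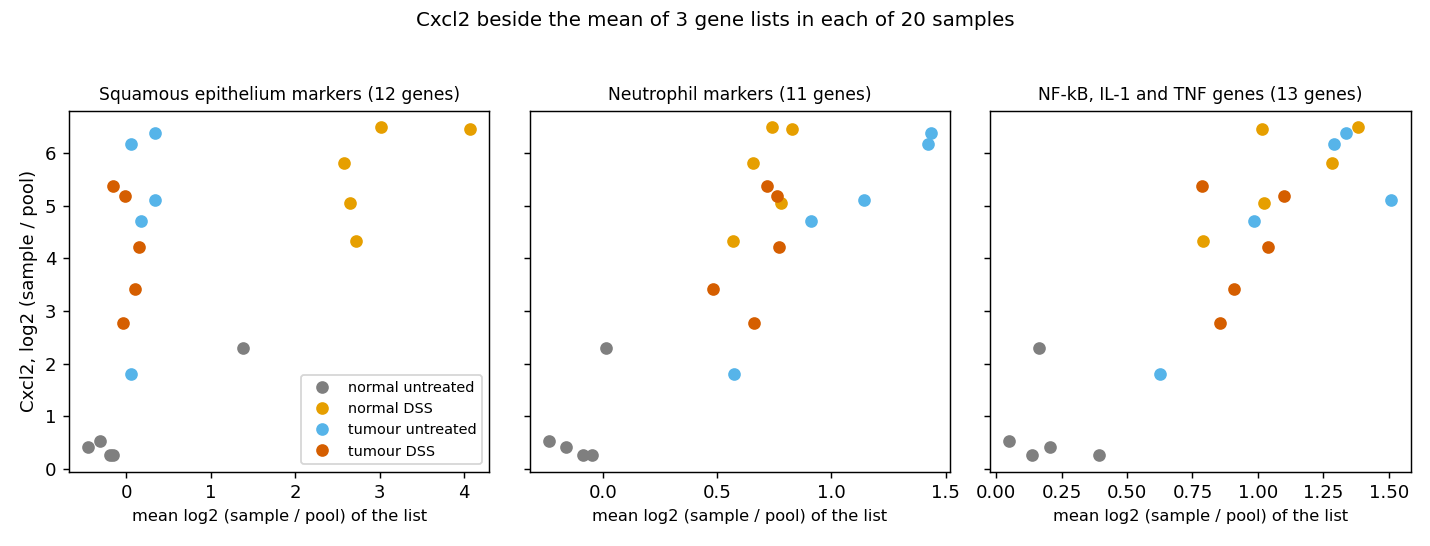
Cxcl2 (vertical axis, log2 of the sample over the pool) is plotted against the mean log2 value of 12 squamous, 11 neutrophil and 13 NF-kB, IL-1 and TNF genes in each of 20 samples, coloured by group. DSS normal colon stands apart on the squamous axis (2.58 to 4.07) and lies among the tumours on the other axes, which share the gene Il1r2.

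Genes of the NF-kB, IL-1 and TNF axis, known inducers, targets or regulators of the ELR ligands, rose beside them in part. Of 13 genes tested, 8 rose and 0 fell in tumours of untreated rats (median change 0.76), and 6 rose and 0 fell with DSS in normal colon (median 0.53). Over all features 8.56% and 3.90% rose, with median changes of -0.00157 and -0.0149. Il1r2, also on the neutrophil list, is in both counts. Il1a, the IL-1 alpha alarmin, rose by 2.96 ± 0.41 in untreated tumours and 2.89 ± 0.41 in DSS normal colon (adjusted p = 0.000102 and 0.000253). Il1b rose by 2.14 ± 0.30 and 2.08 ± 0.30, and the IL-1 antagonist Il1rn by 1.87 ± 0.26 and 1.48 ± 0.26. The NF-kB cofactor Nfkbiz rose by 1.06 ± 0.20 and 0.79 ± 0.20 (adjusted p = 0.000981 and 0.0193). None of the 13 passed in tumours of DSS rats against their normal colon, where limma gave Il1b -0.33 ± 0.30 (adjusted p = 0.6), and 0 of 13 had an unadjusted p under 0.05 there. For 6 of 13 the interaction was negative and past the threshold, as for Cxcl1, Cxcl2 and Cxcl3, against 1.67% of features. Tnf had 0.38 ± 0.13 in untreated tumours (adjusted p = 0.0502), and Il6, dim on most arrays, 0.05 ± 0.06.

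Over the 20 samples, the features most like Cxcl2 were Cxcl1 (Pearson r = 0.969), Il1a (r = 0.955) and Cxcl3 (r = 0.951), out of 13317 features with a symbol. These 20 values come from 10 rats in 4 groups and share the group differences, so the correlations describe the pattern and carry no test.

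The interferon-induced ligands of Cxcr3 all had higher means in tumours than in normal colon in both treatments, but differed in which of these changes passed the threshold. Cxcl11 read -1.35, -1.72, -0.94, -1.49 and -0.32 in normal colon of untreated rats 2, 3, 4, 8 and 10, and -0.10, 1.34, 1.27, 1.92 and 1.41 in their tumours. Rat 2 again had the lowest tumour value, and the groups did not overlap. Cxcl11 rose by 2.33 ± 0.34 (5.03-fold, adjusted p = 0.000143). In DSS rats 1, 5, 6, 7 and 9 it read -1.01, -1.33, -1.36, -1.33 and -1.77 in normal colon and 1.37, 1.61, 1.33, 0.36 and 0.40 in tumours, so here too every tumour exceeded every normal sample. Cxcl11 rose by 2.37 ± 0.34 (5.18-fold, adjusted p = 0.000233). The interaction was 0.04 ± 0.48 (interval -0.96 to 1.05, adjusted p = 0.98), and the DSS difference in normal colon was -0.20 ± 0.34 (adjusted p = 0.798).

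Cxcl10 was also higher in tumours, with more spread between rats. Its normal values in untreated rats 2, 3, 4, 8 and 10 were -0.28, -0.68, 1.59, -0.70 and -0.83, and its tumour values 0.24, 1.51, 1.26, 2.01 and 1.16. The normal colon of rat 4, on an array with raised signal, stood above 4 of the 5 tumours. The change of 1.42 ± 0.55 did not pass (adjusted p = 0.0836), while leaving out the 3 arrays of raised signal gave 1.89 (adjusted p = 0.02). In DSS rats 1, 5, 6, 7 and 9 Cxcl10 read -0.08, -0.06, -0.58, -0.37 and -2.36 in normal colon and 1.57, 1.67, 3.11, 0.25 and 1.59 in tumours, with no overlap. It rose by 2.33 ± 0.55 (5.02-fold, adjusted p = 0.0121), and this call was lost without rat 6 (1.99, adjusted p = 0.0544) or rat 9 (1.92, adjusted p = 0.0632). The difference between the treatments was not past the threshold (interaction 0.91 ± 0.77, adjusted p = 0.633).

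Cxcl9 did not pass the test in any comparison. It read -0.63 to -0.03 in untreated normal colon, -0.56 to -0.03 in DSS normal colon, -0.27 to 0.72 in untreated tumours and -0.97 to 0.85 in DSS tumours. Tumours were higher in 5 of 5 untreated and 4 of 5 DSS rats, by 0.53 ± 0.27 (adjusted p = 0.198) and 0.38 ± 0.27 (adjusted p = 0.481). With the deposited processed signals in place of normexp and loess, these changes were 1.20 (adjusted p = 0.0384) and 1.35 (adjusted p = 0.0368), and within lot 1 the change in DSS rats was 0.65 (adjusted p = 0.0327), so the call for Cxcl9 depended on the setting.

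Interferon gamma genes did not rise as a block. Of 12 tested, 4 rose and 1 fell in tumours of untreated rats, and 2 rose and 2 fell in those of DSS rats. The array-wide shares were 8.56% up and 9.42% down without DSS, and 3.73% up and 3.86% down with DSS. Rises in both treatments and falls in DSS rats were thus more frequent in this list, while 7 and 8 of the 12 did not pass. The GTPase Gbp2 rose by 4.15 ± 0.33 and 2.51 ± 0.33 (adjusted p = 4.36e-07 and 0.00011), and the immunoproteasome subunit Psmb8 by 0.56 ± 0.18 and 0.85 ± 0.18. The receptor chain Ifngr2 fell, with changes of -1.39 ± 0.26 and -1.10 ± 0.26. Ifng itself did not pass the filter on dim probes. Ido1, which degrades tryptophan, went with DSS normal colon instead: it rose there by 2.13 ± 0.24 (adjusted p = 3.37e-05) and had a change of -2.38 ± 0.24 from there to DSS tumours (adjusted p = 7.9e-06). Of 12 T and NK cell markers, 1 rose and 1 fell in each tumour comparison, where 18.0% (untreated) and 7.59% (DSS) of all features were called. The untreated count is near that share. Cd2 rose by 0.63 ± 0.13 in untreated rats, Cd3e by 0.25 ± 0.07 in DSS rats, and the granzyme Gzmb had changes of -1.27 ± 0.37 and -1.67 ± 0.37. The features most like Cxcl10 over the 20 samples were Igtp (r = 0.889), Tnfrsf11b (r = 0.877) and Psme2 (r = 0.876).

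Cxcl13 was the one of the 9 members that fell in tumours. It read 0.63, 0.56, 0.20, 0.83 and 0.08 in normal colon of untreated rats 2, 3, 4, 8 and 10, and -1.05, -2.85, -2.56, -2.51 and -2.16 in their tumours. The tumour of rat 2 was the least low, and every tumour lay below every normal sample. The change was -2.69 ± 0.34 (6.43-fold lower, interval -3.41 to -1.96, adjusted p = 4.99e-05). In DSS rats 1, 5, 6, 7 and 9 it read 0.35, 0.63, -0.57, -0.01 and -0.86 in normal colon and -2.19, -2.81, -3.74, -3.42 and -3.22 in tumours. That was a change of -2.98 ± 0.34 (7.89-fold lower, adjusted p = 2.66e-05), within rats by -3.44 to -2.36. DSS against untreated gave -0.56 ± 0.34 in normal colon (adjusted p = 0.387) and -0.85 ± 0.34 in tumours, which had an unadjusted p of 0.0234 and an adjusted p of 0.674. Lot 1 and lot 2 gave -2.62 and -2.79 for the untreated tumour difference, and -3.05 and -2.88 for that in DSS rats.

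B cell genes could be read only in part beside Cxcl13. Its receptor Cxcr5 was well above background on 3 of 24 arrays and was not tested. Of 10 B cell and plasma cell markers 5 were tested, and 1 passed in untreated tumours, a count near the 18.0% of all features called there. It was the low-affinity IgE receptor Fcer2, which rose by 2.69 ± 0.26 (adjusted p = 2.51e-06). Jchain had 0.88, Mzb1 0.49, Cd79b -0.08 and Ms4a1 -0.11 in that comparison. Fcer2 also rose in tumours of DSS rats (0.87 ± 0.26, adjusted p = 0.0453) and with DSS in normal colon (1.26 ± 0.26, adjusted p = 0.0051). The list mean ran from -0.58 to -0.06 in untreated normal colon, -0.14 to 0.47 in DSS normal colon, 0.29 to 0.93 in untreated tumours and 0.39 to 0.80 in DSS tumours, and its part in the Cxcl13 values was not tested. Fcer2, with the largest of the 5 changes in untreated tumours, weighs most in the rise of that mean there. The features most like Cxcl13 over the 20 samples were Cd302 (r = 0.971), Ctsc (r = 0.959) and C13h1orf21 (r = 0.956), with changes of -1.78, -1.24 and -1.40 in untreated tumours.

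Cxcl14 rose in tumours of both treatments by about the same amount. It read 0.07, -0.51, -0.27, 0.08 and 0.08 in normal colon of untreated rats 2, 3, 4, 8 and 10, and 1.13, 1.30, 1.04, 2.25 and 2.0 in their tumours. Every tumour exceeded every normal sample, and the change was 1.65 ± 0.27 (3.14-fold, adjusted p = 0.000456). In DSS rats 1, 5, 6, 7 and 9 it read 0.30, 0.41, 1.11, 0.87 and -0.49 in normal colon and 2.03, 1.92, 1.88, 2.54 and 1.73 in tumours, again with no overlap. It rose by 1.58 ± 0.27 (2.99-fold, adjusted p = 0.00135), and the interaction was -0.07 ± 0.39 (interval -0.89 to 0.75). With median centring the untreated change was 1.56 (adjusted p = 0.0655). In normal colon DSS gave 0.55 ± 0.27 (adjusted p = 0.27), 0.84 within lot 1 (adjusted p = 0.0235), 0.11 within lot 2 and 0.62 with array weights (adjusted p = 0.0294). The features most like Cxcl14 were Htra1 (r = 0.956), Psmg1 (r = 0.943) and Armh4 (r = 0.941).

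Cxcl12 was below the pool in every sample and did not differ past the threshold between any groups. It read -3.49 to -1.21 in untreated normal colon, -2.49 to -1.49 in DSS normal colon, -3.24 to -1.19 in untreated tumours and -2.92 to -1.16 in DSS tumours. The tumour changes were 0.03 ± 0.45 and 0.02 ± 0.45, and the DSS changes 0.51 ± 0.45 in normal colon and 0.50 ± 0.45 in tumours. Its second probe gave -0.00 and 0.11 for the tumours and 0.19 and 0.30 for DSS. The interval of -0.93 to 0.98 in untreated tumours leaves room for a change of nearly 1 log2 unit in either direction.

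**Figure D4:**
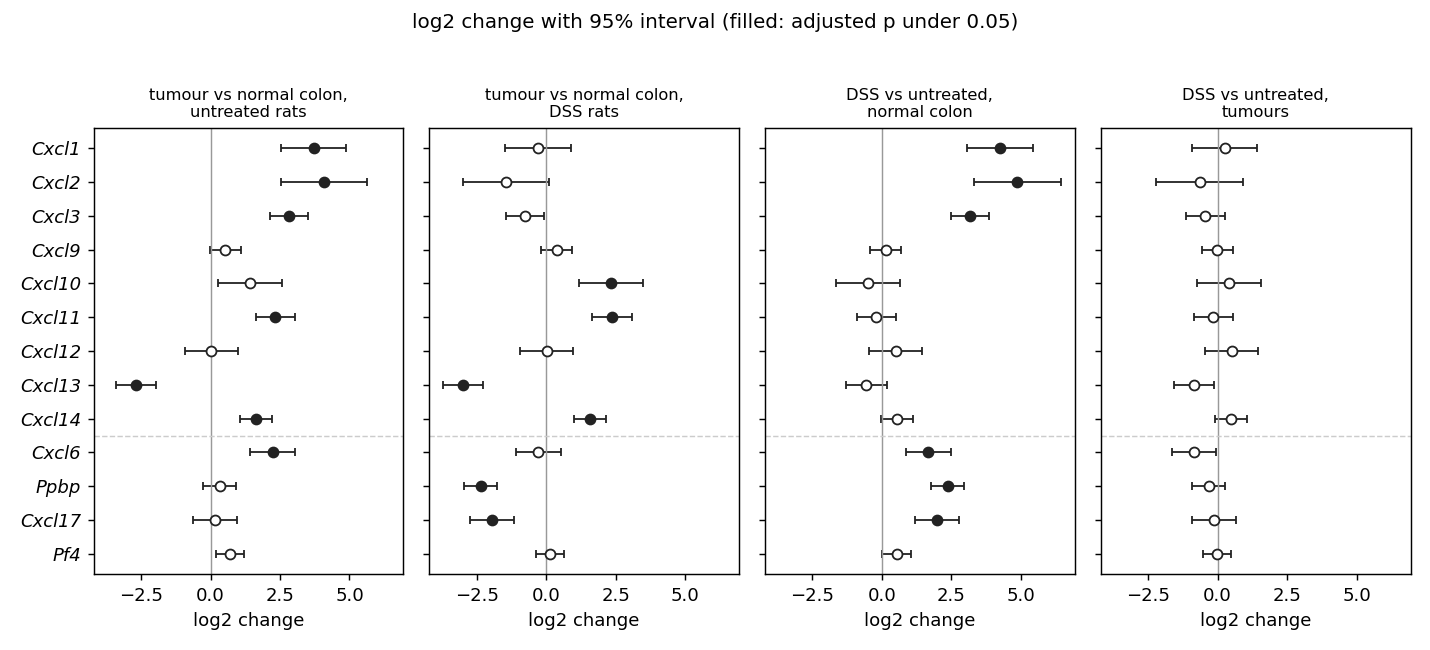
Log2 change (horizontal axis) with its 95% interval for the 9 measured chemokines (above the dashed line) and 4 other CXC chemokines (below it) in 4 comparisons, each of 5 rats against 5, with filled points past the threshold. Filled points for Cxcl1, Cxcl2 and Cxcl3 stand in the untreated tumour and DSS normal colon panels, those of Cxcl11, Cxcl13 and Cxcl14 in both tumour against normal panels, and none in the panel between tumours.

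Of 6 receptors tested, 3 rose in tumours of untreated rats, against 8.56% of features, and none passed elsewhere in limma. Ackr3 and Cxcr6 were higher in DSS tumours than in DSS normal colon at unadjusted p of 0.0102 and 0.0334 (adjusted p = 0.0962 and 0.199). There 19.7% of features had an unadjusted p under 0.05. Between tumours Cxcr2 and Cxcr6 had DSS changes of -0.21 and -0.47 (unadjusted p = 0.047 and 0.00629, adjusted p = 0.79 and 0.505). That unadjusted level was reached by 6.28% of features. The Cxcr2 probe was well above background on 2 of 6 DSS and 5 of 5 untreated tumour arrays. The Cxcr2 interaction was -0.40 ± 0.14 (unadjusted p = 0.0114, adjusted p = 0.161), where 15.1% of features had an unadjusted p under 0.05. The 3 that rose in untreated tumours were the scavenging Cxcl12 receptor Ackr3 (1.15 ± 0.26, adjusted p = 0.00475), Cxcr6, the receptor of Cxcl16 (0.73 ± 0.15), and Cxcr4 (0.78 ± 0.23, adjusted p = 0.0214). By the second Cxcr4 probe the change was 0.81 ± 0.28, short of the threshold (adjusted p = 0.0509). In tumours of DSS rats Ackr3 had 0.74 (adjusted p = 0.0962) and Cxcr4 0.32 (adjusted p = 0.48). Cxcr2 had 0.29 ± 0.10 in untreated tumours (adjusted p = 0.0513), and its probe was well above background on 13 of 24 arrays. Cxcr1 and Cxcr3 were dim, on 5 and 7 of 24 arrays, and Cxcr3 had 0.03 and 0.11 in the tumours, so the receptor of Cxcl10 and Cxcl11 was near the floor of the assay. All 5 arrays of Cxcr1 were of untreated normal colon, so it passed the filter through that group alone and its changes are not read. Ackr1 was not analysed here.

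Of 5 proteases that process these ligands, Dpp4 moved most. Dpp4, which clips and inactivates Cxcl10, Cxcl11 and Cxcl12, fell in tumours of untreated rats (-2.74 ± 0.26, adjusted p = 2.09e-06) and with DSS in normal colon (-1.63 ± 0.26, adjusted p = 0.00061), and its interaction was 1.93 (adjusted p = 0.00648). Mmp9 rose in untreated tumours by 0.64 ± 0.14, with a probe well above background on 2 of 7 untreated normal arrays. Mmp8 also rose, from a group where its probe was well above background on 0 of 7 arrays, so no size is given. Adam17 rose in DSS normal colon by 0.70 ± 0.20 (adjusted p = 0.0416).

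Markers of other cell types of this tissue were counted too. In untreated tumours 5 of 9 macrophage markers rose, among them Adgre1 by 0.72 ± 0.18, and 4 of 8 fibroblast and matrix markers, led by Dcn at 3.03 ± 0.44. In tumours of DSS rats 1 of 9 and 0 of 8 rose, and in DSS normal colon 1 of 9 and 1 of 8. Over all features 8.56%, 3.73% and 3.90% rose in these comparisons in turn. Of 4 smooth muscle markers, Des fell in untreated tumours (-1.62 ± 0.36, adjusted p = 0.00426), and 6 endothelial markers did not pass in any comparison. Of 14 colonic epithelium markers, 4 fell in untreated and 3 in DSS tumours, against 9.42% and 3.86% of features. Their part in the chemokine values was not tested.

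Tumours varied between rats and lots. In untreated rats the tumour of rat 2 was the lowest of 5 for Cxcl1, Cxcl2, Cxcl3, Cxcl10 and Cxcl11 and the highest for Cxcl13, with the lowest neutrophil mean (0.57) and NF-kB axis mean (0.62) of its group. Its smooth muscle mean was -1.38, against -2.93 to -2.65 in the other 4 tumours, and the part of these lists in its chemokine values was not tested. Between the tumours of DSS and untreated rats, 6 of 9 chemokines were higher with DSS in lot 1 and lower in lot 2, against 23.5% of all features. Cxcl2 differed by 0.39 in lot 1 and by -2.20 in lot 2, and Cxcl11 by 0.60 and -1.28. The lots hold 3 and 2 rats of each group, and no chemokine passed the threshold within either. For the tumour difference in untreated rats 7 of 9 were higher and 1 lower in both lots. Of 26500 features, 9642 were higher and 9881 lower in both lots there, so most features also kept their direction.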

How the data were processed

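Per the labels' protocols, total RNA of normal colon and tumours was linearly amplified and hybridised to 2-colour Agilent arrays, with the sample in Cy3 and the wild-type pool in Cy5 and no dye swap. The deposited scanner output holds spot intensities. Per the file headers, they were made with Feature Extraction 9.1.3.1, and the submitters' processing notes also name Partek, with no role given. The deposited intensity values were corrected with normexp (offset 50), normalized by loess within each array in limma 3.58.1 (R 4.3.3) and turned into log2 of sample over pool, with control and non-uniform spots at weight 0. The processed signals deposited by the authors served as an alternative, and the deposited log10 ratios were not used. Loess and the fixed dye orientation leave a dye bias per probe in each level that is common to all groups.

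Repeat arrays of a rat and tissue were averaged, which left 20 samples of 10 rats. Probes well above background on at least 5 of 24 arrays were kept, the brightest probe stood for a gene, and 26660 features were tested with lmFit and eBayes on 4 groups. P-values were adjusted by Benjamini-Hochberg over all features at 0.05, and 0.0697% of values were missing. P-values rest on the spread between rats within a group, pooled over the 4 groups. The main fit took normal colon and tumour of a rat as independent samples. Tissues with the same number come from the same rat: residuals correlated by 0.0783 to 0.568. The fit was also run on simulated data with independent noise in each sample. That noise held no pairing by rat, no lots and no raised arrays, so it does not bear on those.

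Probes were named by accession (10835), current symbol (5196), older name (3478), gene ID (1082) or description (1), and 20420 stayed unnamed. Members and lists were chosen with earlier results of these data known. All members, other CXC genes and receptors on the array were named, of each other list up to 3 genes with the smallest p, and 9 genes always, of which 1 is not reported here. Lcn2, Trem1, Mpo, Ltf, Tnf, Il6, Jchain, Mzb1, Ms4a1 and Cd79b fall outside that rule and were named after their values were seen. The alternatives covered background, normalization, filter, probe choice, lots, slides, scan days, pairing, array weights and each rat left out.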

Additional observations from a re-analysis of the deposited data

Results flagged for a closer look

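In 4 of 36 sets of 5 rats, 1 rat lay far from the rest, where chance gives about 1 in 20 sets, or 1.8. Cxcl1 in normal colon of untreated rats was highest in rat 8 at 1.06 log2 over the pool, and Cxcl2 was highest in the same sample at 2.3. That sample also had the highest squamous mean of its group (1.38), whose part in these values was not tested. Cxcl10 in normal colon was highest among untreated rats in rat 4 at 1.59, on an array with raised signal, and lowest among DSS rats in rat 9 at -2.36.

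The DSS effect differed between tumours and normal colon by the interaction test for Cxcl1 (-4.0), Cxcl2 (-5.52) and Cxcl3 (-3.60), on the log2 scale.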

How the results depend on the processing

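Over 26 alternatives no member's called change turned its sign. Of the values for single members, 1052 kept their direction and call, 75 turned sign with neither value past the threshold, 16 lost their call and 9 gained one. With 2 rats a group in lot 2, the chemokines called fell from 3 to 0 for DSS in normal colon, from 4 to 1 for tumours of DSS rats and from 3 to 0 for the interaction, and within lot 1 the interaction gave 1. Leaving out each rat gave 6 to 7 calls for tumours of untreated rats, 3 to 4 for those of DSS rats, 3 to 3 for DSS in normal colon, 3 to 3 for the interaction and 0 to 0 between tumours. Pairing by rat as a replicate block gave 6, 4 and 3 calls for the tumour comparisons and the interaction, and as a random block (consensus correlation 0.271) 7, 4 and 3, where Cxcl10 passed in untreated tumours (1.42, adjusted p = 0.0408). It changed no other member's call. Under median centring the median change of all features was 0.381 (interaction), 0.25 (tumours of DSS rats) and 0.224 (between tumours), against 0.02, 0.02 and 0.01 with loess, and Cxcl10 in DSS rats then had 2.97 (adjusted p = 0.071). All features called ranged from 917 (median centring) to 6685 (lot as a block) around 4794 in untreated tumours, 111 (lot 2) to 3904 (array weights) around 2024 in DSS rats, 2 (lot 2) to 5804 (array weights) around 1929 for DSS in normal colon, and 3 (lot 2) to 1673 (rat as random block) around 666 for the interaction. Fewer samples were fitted within a lot, and the other causes were not tested. Signal over background limits, among others, Ppbp, Cxcl6 in untreated normal colon, the second Cxcl17 probe, Mmp8, Mmp9, Cxcr1, Cxcr2, Cxcr3 and Cxcr5.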
